A study of Mus musculus with 5 samples.

Results

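The mu class of glutathione S-transferases was examined in mouse HT22 cells after knockdown of the long non-coding RNA Gas5. The members were the 7 genes Gstm1 to Gstm7, taken by name from the 55487 genes of the deposited counts table. They were chosen because the counts of Gstm6 were higher in each knockdown library than in either control library, and the other 6 genes, its neighbours and paralogs, were added as the comparison. The difference between knockdown and control is therefore what selected Gstm6, and it is given below as a description without a test. All 7 genes were found in the table, and 5 of them (Gstm1, Gstm2, Gstm5, Gstm6 and Gstm7) passed the filter on low counts.

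HT22 is an immortalized line derived from mouse hippocampus. Poly(A) RNA was sequenced 48 h after transfection with 10 nM of siRNA, in 5 libraries: 1 from cells given GAS5 siRNA210, 2 from cells given GAS5 siRNA596 and 2 from cells given a negative control siRNA (NC). The GEO characteristics call the NC cells untreated, whereas their titles name NC siRNA. All groups thus share the line and, by the titles, the transfection, and a group without transfection was not analysed here. The paper states in general that its experiments were repeated, without naming the RNA-Seq. Nothing in the sources used here says that the RNA-Seq libraries of a group came from separate cultures. A P-value therefore measures the spread between these libraries, which may be technical. Both siRNAs together form the knockdown (KD) group.

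The libraries held 30660265 to 36492134 counts. Gas5 had 3178 and 2916 reads in the NC libraries, 2134 with siRNA210 and 2357 in siRNA596 replicate 1. In the library labelled siRNA596 replicate 2 it had 4727 reads, which goes against that label. The mean counts in the authors' comparison table match those of the other 4 libraries to within 0.0977%, so values are given first for these 4 and then for all 5. Without that library the log2 fold change of Gas5 was -0.41 (standard error 0.106, unadjusted P = 0.00377 and adjusted P = 0.967 from edgeR), and with it the value was 0.29. Of 10 neuronal markers only Map2 and Tubb3 had at least 10 reads in every library, and Rbfox3, Snap25, Stmn2, Nefl and Gria2 had 3 or fewer in each, so most markers of the labelled neuronal type were near or at 0. The summed progenitor markers ran from 2996 to 3361 CPM in NC and from 3421 to 3677 CPM in the 4-library KD group, with 4832 CPM in the library labelled siRNA596 replicate 2. They came from Vim and Nes, and Sox2 was at 0. The summed fibroblast markers ran from 4663 to 5051 CPM in NC and from 4815 to 5248 CPM in KD, with 3833 CPM in that library. Most of this sum was Col1a1, whereas Dcn had 16 and 0 reads in NC, 28 and 10 in KD and 1 in that library. Low counts were even more often than odd. Of the values from 1 to 20, between 62.0% and 68.0% were even in each library, and in NC replicate 1 the value 2 occurred 1958 times against 884 times for 1 and 442 times for 3. The sources used here do not say whether both reads of a pair were counted, and counting intervals below treat each read as independent.

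Glutathione S-transferases join the tripeptide glutathione to electrophilic compounds, which makes such compounds more soluble and easier to export. The mu enzymes are cytosolic dimers that act on epoxides, quinones and products of lipid peroxidation, and the mouse genes lie side by side in 1 cluster. In many tissues the transcription factor NRF2 (gene Nfe2l2) raises the expression of several glutathione transferases through the antioxidant response element (ARE) in their promoters, and the aryl hydrocarbon receptor acts through the xenobiotic response element (XRE). Gstm5 is known for its expression in brain and testis, whereas Gstm1 is a major hepatic form.

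The cluster covers 149.1 kb of chromosome 3 in GRCm38. Gstm5 (ENSMUSG00000004032) comes first, on the plus strand at chr3:107895821-107898686. The other 6 lie on the minus strand. Gstm7 (ENSMUSG00000004035) is at chr3:107926334-107931817 and Gstm6 (ENSMUSG00000068762) at chr3:107938847-107943749. Gstm3 (ENSMUSG00000004038) follows at chr3:107963696-107969283 and Gstm2 (ENSMUSG00000040562) at chr3:107981702-107986453. Gstm1 (ENSMUSG00000058135) is at chr3:108012255-108017973 and Gstm4 (ENSMUSG00000027890) at chr3:108040408-108044894. Each of the 7 has 8 exons in its principal coding transcript. The coding sequence is 654 bases long including the stop codon, except in Gstm5, where it has 672. By these spans, which are from GENCODE, Gstm6 is closest to Gstm7, with 7.03 kb between their annotated ends, and lies 19.9 kb from Gstm3. RefSeq also lists a Gstm6 start nearer to Gstm3, within chr3:107953417-107953716. From the Gstm6 span, that start lies beyond the pseudogene Gm12494 (chr3:107950795-107953121).

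A read can be assigned to a gene only where its sequence differs from that of the others, so a stretch that shows how the members differ is given. These are 60 bases of each coding sequence from the annotated transcripts of GRCm38, starting at coding base 13 of Gstm6 (base 22 in Gstm5, whose start is longer). Capitals mark bases that differ from Gstm6.
Gstm6: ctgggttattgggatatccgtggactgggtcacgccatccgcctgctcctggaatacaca
Gstm2: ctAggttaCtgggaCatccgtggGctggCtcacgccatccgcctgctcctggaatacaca
Gstm3: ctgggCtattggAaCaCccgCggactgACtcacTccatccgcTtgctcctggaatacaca
Gstm4: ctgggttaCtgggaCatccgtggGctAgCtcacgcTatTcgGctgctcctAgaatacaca
Gstm7: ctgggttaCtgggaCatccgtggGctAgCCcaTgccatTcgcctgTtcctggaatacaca
Gstm1: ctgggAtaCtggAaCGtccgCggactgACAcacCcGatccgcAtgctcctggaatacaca
Gstm5: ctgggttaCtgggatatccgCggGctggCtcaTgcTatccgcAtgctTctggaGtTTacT
In this stretch Gstm2 differs from Gstm6 at 5 bases, Gstm3, Gstm4 and Gstm7 at 9 each, and Gstm1 and Gstm5 at 12 each. Over the whole coding sequence Gstm6 shares 85.6% of its bases with Gstm2, 83.9% with Gstm3, 82.9% with Gstm1, 82.6% with Gstm7, 80.6% with Gstm4 and 71.9% with Gstm5. Within the family the identity ran from 69.9% between Gstm3 and Gstm5 to 89.4% between Gstm1 and Gstm3.

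The levels of the members spanned several orders of magnitude. On the scale of CPM per kb of exonic length (counts scaled to library size by TMM, divided by the length of all annotated exons), Gstm2 was highest, at 38.8 to 50.3 over the 4 libraries. Gstm1 followed at 20.9 to 30.0 and Gstm5 at 11.7 to 12.3. Gstm7 lay at 1.14 to 2.78 and Gstm6 at 0.143 to 0.759. Gstm3 was near the floor, at 0.0213 to 0.139, and Gstm4 had no read in any library. The ranges of neighbours in this order did not overlap over the 4 libraries, although the lowest Gstm6 level, in NC replicate 1, lay just above the highest Gstm3 level, in NC replicate 2. With the library labelled siRNA596 replicate 2, the range of Gstm1 (20.9 to 53.7) overlapped those of Gstm2 (38.8 to 90.5) and Gstm5 (11.7 to 28.4). Among 27287 genes ranked by mean level over the 5 libraries, Gstm2 stood at the percentile 96.4, Gstm1 at 93.2, Gstm5 at 85.9, Gstm7 at 63.4, Gstm6 at 51.6 and Gstm3 at 30.7.

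**Figure D1:**
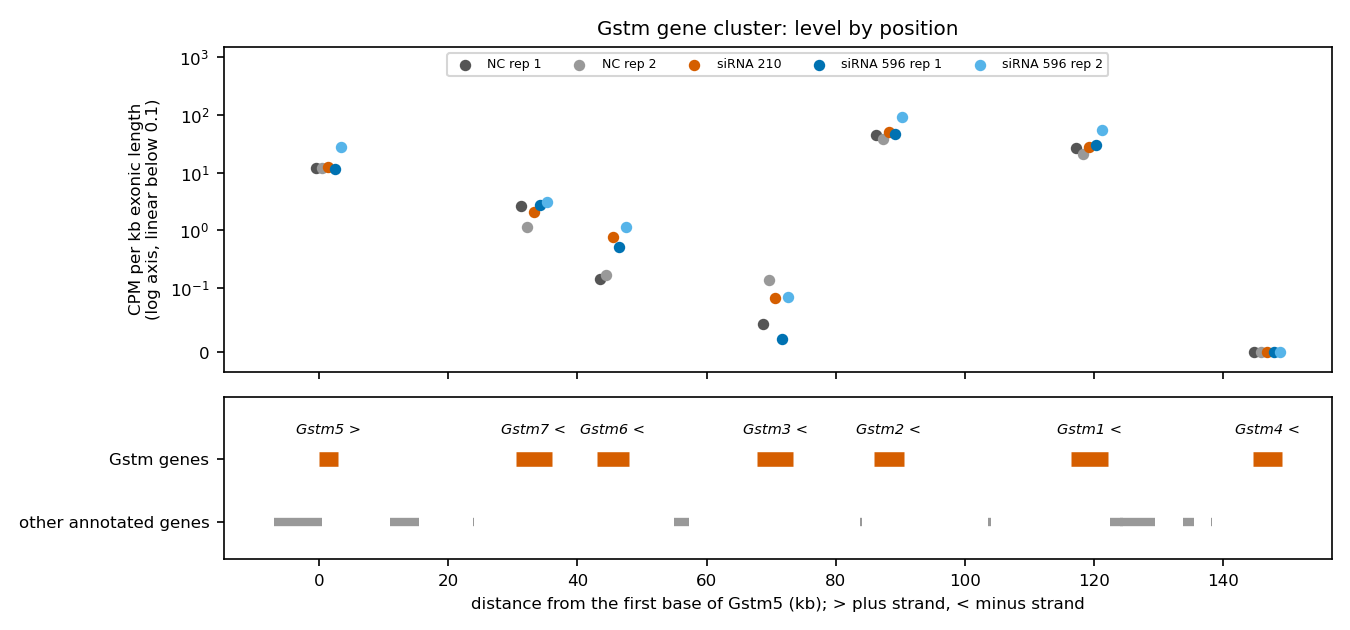
Level and position in the Gstm cluster. The upper panel plots CPM per kb of exonic length on a log axis (linear below 0.1), with 1 point per library offset sideways for legibility, and the lower panel shows the genes by their distance in kb from the first base of Gstm5. Gstm2 and Gstm1 are the highest, Gstm6 and Gstm3 lie low between them and Gstm7, and Gstm4 is at 0.

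Gstm6 encodes a mu class transferase, and its low counts carry the selection of the cluster. It had 10 reads in NC replicate 1 and 13 in the second NC library, compared with 54 with siRNA210, 36 in siRNA596 replicate 1 and 59 in the library labelled siRNA596 replicate 2. The groups did not overlap, but Gstm6 was chosen for this, so the gap between them is built in. Of all genes tested, 16.7% lay wholly above NC with 4 libraries and 8.3% with 5. The intervals that follow treat each read as independent and would be too narrow if both reads of a pair were counted. The exact Poisson 95% intervals, which cover counting error only, were 4.80 to 18.4 and 6.92 to 22.2 reads in NC, 40.6 to 70.5 with siRNA210, 25.2 to 49.8 in siRNA596 replicate 1 and 44.9 to 76.1 in the library labelled siRNA596 replicate 2. After normalization the NC mean was 0.312 ± 0.0386 CPM (SD, n = 2) and the KD mean 1.258 ± 0.356 CPM (SD, n = 2), or 1.58 ± 0.618 CPM (SD, n = 3) with all KD libraries. From the fit, the log2 fold change came to 2.00 (standard error 0.525) with 4 libraries and 2.33 (standard error 0.577) with 5. In bulk RNA, more cells with a transcript and more transcript per cell cannot be told apart.

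The most abundant members differed less. Gstm2, a widely expressed mu enzyme, had 2619 and 2500 reads in the NC libraries, 3022 with siRNA210, 2771 in siRNA596 replicate 1 and 4011 in the library labelled siRNA596 replicate 2. Its NC mean was 69.8 ± 6.57 CPM (SD, n = 2) and its KD mean 81.0 ± 4.97 CPM (SD, n = 2). This gave a log2 fold change of 0.21 (standard error 0.0971), and 0.58 (standard error 0.354) with 5 libraries. Both KD libraries of the 4 lay above both NC libraries, by a margin smaller than the gap between the NC libraries in the case of siRNA596 replicate 1.

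Gstm1, the major hepatic mu enzyme, had 1393 and 1181 reads in NC, 1454 with siRNA210, 1581 in siRNA596 replicate 1 and 2089 in the library labelled siRNA596 replicate 2. In CPM these were 39.6, 30.8, 40.6, 44.2 and 79.1. NC replicate 1 thus lay nearer to the siRNA210 library than to NC replicate 2. The log2 fold change was 0.27 (standard error 0.132), and 0.63 (standard error 0.365) with 5 libraries.

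Gstm5, the brain and testis form, had 540 and 595 reads in NC, 563 with siRNA210, 533 in siRNA596 replicate 1 and 957 in the library labelled siRNA596 replicate 2. Over the 4 libraries its level stayed between 14.9 and 15.7 CPM and the groups overlapped, with a log2 fold change of -0.013 (standard error 0.133). The library labelled siRNA596 replicate 2 stood at 36.2 CPM, and with it the log2 fold change was 0.53 (standard error 0.450).

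Gstm7, the nearest neighbour of Gstm6, had 146 reads in NC replicate 1 but 70 in NC replicate 2. It had 119 with siRNA210, 159 in siRNA596 replicate 1 and 130 in the library labelled siRNA596 replicate 2. The groups overlapped, since NC replicate 1 lay above siRNA210. The log2 fold change was 0.38 (standard error 0.377) and depended on the NC libraries, at 1.09 without NC replicate 1 and -0.095 without NC replicate 2. With 5 libraries it was 0.50 (standard error 0.455).

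Gstm3, which is close in sequence to Gstm1, had 2 and 7 reads in NC, 4 with siRNA210, 1 in siRNA596 replicate 1 and 3 in the library labelled siRNA596 replicate 2. It did not pass the filter, and its counts in most libraries were at or near the floor of 3. Gstm4 was at 0 in all 5 libraries, a count that allows up to 3 reads in each. None of the 1720 windows of 50 bases in its transcripts occurred in another gene.

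**Figure D2:**
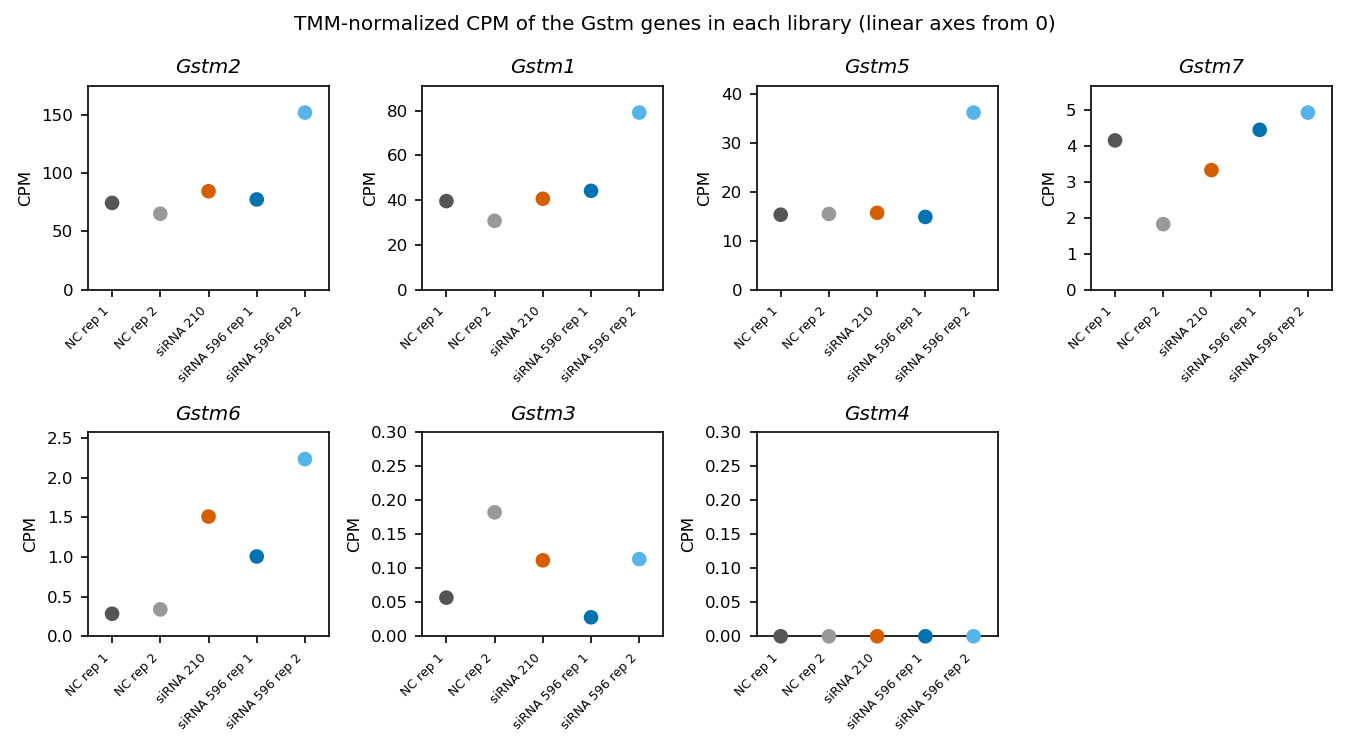
Level of each Gstm gene in each library. Each panel plots TMM-normalized CPM on a linear axis from 0, with 1 point per library. Gstm6 is low in both NC libraries (10 and 13 reads) and higher in the 3 KD libraries, Gstm7 is low in NC replicate 2, and Gstm5 is level in 4 libraries and high in the library labelled siRNA596 replicate 2.

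Gstm6 was chosen because every KD library lay above every NC library. Among the other 4 tested members the same held for 2 (Gstm1 and Gstm2), with 4 libraries and with 5, and in 0 did every KD library lie below. The untested Gstm3 and Gstm4 did not show it. Of all genes tested, 16.7% lay wholly above and 16.2% wholly below with 4 libraries, and 8.3% and 9.48% with 5. One member, Gstm6, passed the criteria of the study, an unadjusted P under 0.05 and a fold change over 2, toward higher expression, as did 0.366% of all genes with 4 libraries and 0.18% with 5. No member passed toward lower expression, where 0.51% of all genes did with 4 libraries and 0.173% with 5. Gstm6 was selected on this contrast, so its call supports nothing. No gene had an adjusted P under 0.05 in edgeR, against 523 genes with an unadjusted P under 0.05 and 1 gene with an adjusted P under 0.05 in DESeq2. The median log2 fold change of all genes was -0.0023 with 4 libraries and 0.011 with 5.

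The library labelled siRNA596 replicate 2 differed from the others in more than the cluster. Of 1540 genes with exonic lengths of 1278 to 1989 bases, which is the range of the tested Gstm genes, 71.1% were above the NC mean in it, with a median log2 ratio of 0.69 and an interquartile range of -0.21 to 1.24. In the same library the log2 ratios of Gstm1, Gstm2, Gstm5 and Gstm7 were 1.17, 1.12, 1.23 and 0.72, all within that range. The ratio of Gstm6 was 2.84. In the other KD libraries the genes of this length had medians of 0.023 (siRNA210) and 0.0077 (siRNA596 replicate 1), and Gstm6 stood at 2.28 and 1.69.

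**Figure D3:**
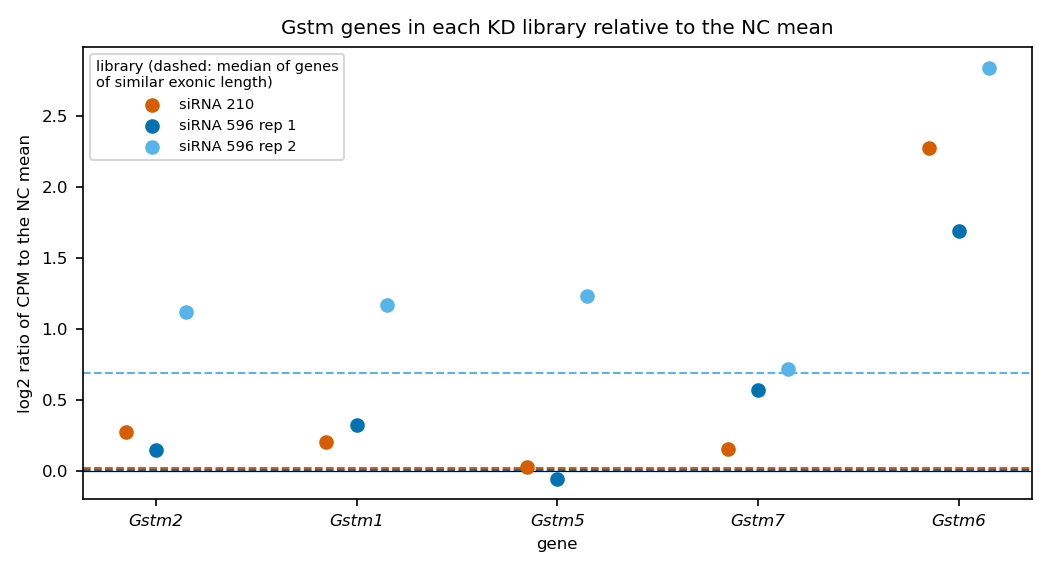
Tested Gstm genes in each KD library. The vertical axis is the log2 ratio of CPM to the NC mean, each point is 1 library, and the dashed lines are the medians of genes of 1278 to 1989 exonic bases in that library. In the library labelled siRNA596 replicate 2 all 5 genes lie above their dashed line at 0.69, and in the other libraries Gstm6 lies farthest from it, at 2.28 and 1.69.

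Gstm6 made up little of the reads of the cluster. Its share of the summed reads of the 7 genes was 0.212% in NC replicate 1 (exact binomial 95% interval 0.102 to 0.390) and 0.298% in NC replicate 2 (0.159 to 0.509). It was 1.04% with siRNA210 (0.779 to 1.35), 0.709% in siRNA596 replicate 1 (0.497 to 0.980) and 0.814% in the library labelled siRNA596 replicate 2 (0.620 to 1.05). These intervals treat reads as independent, and Gstm6 was chosen on these counts, so a gap between the groups is built in. Per 1000 reads of Gstm2, Gstm6 had 3.82 and 5.20 reads in NC, against 17.9 (siRNA210), 12.99 (siRNA596 replicate 1) and 14.7 (the library labelled siRNA596 replicate 2). Per 1000 reads of Gstm1 it had 7.18 and 11.0 in NC, and 37.1, 22.8 and 28.2 in KD. These ratios rest on the same Gstm6 counts and are a description. Over the 5 libraries the share was 54.5% to 57.9% for Gstm2, 27.1% to 31.1% for Gstm1 and 10.5% to 13.6% for Gstm5. That of Gstm7 ran from 1.60% in NC replicate 2 to 3.13% in siRNA596 replicate 1.

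A sum over the 7 genes does not depend on how reads were split among them. It was 124 ± 14.2 CPM in NC (SD, n = 2) and 144 ± 2.68 CPM in KD (SD, n = 2), a log2 ratio of 0.22, and 0.21 without Gstm6. The difference of the means was of the order of the NC spread. With 5 libraries the ratio was 0.60, and 0.59 without Gstm6.

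The sequence that could confuse the genes was counted in windows of the annotated transcripts. Of the 2176 windows of 50 bases in Gstm6, 130, or 5.97%, also occurred in another gene. Gstm3 held 76 of these, the pseudogene Gm12494 54 and the pseudogene Gm8834 24, and neither Gstm1 nor Gstm2 held any. These 3 genes had few reads themselves. Gm12494 had 3 and 0 reads in NC, 4 with siRNA210, 6 in siRNA596 replicate 1 and 9 in the library labelled siRNA596 replicate 2. Gm8834 had 2 in each NC library, 9 with siRNA210, 4 in siRNA596 replicate 1 and 0 in the other. In Gstm1 18.9% of windows were shared, mainly with Gstm2-ps1 (15, 7, 12, 9 and 13 reads) and Gstm3. In Gstm3 28.8% were shared, in Gstm5 9.44%, in Gstm2 5.66% and in Gstm7 0.532%. With windows of 100 bases the share was 1.10% in Gstm6 and 13.8% in Gstm3, and with 150 bases it was 0 in Gstm6 and 3.44% in Gstm3. The counts of Gstm3 are therefore the least certain of the family. The windows count exact matches only, and the handling of reads with several alignments is not given in the sources used here.

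**Figure D4:**
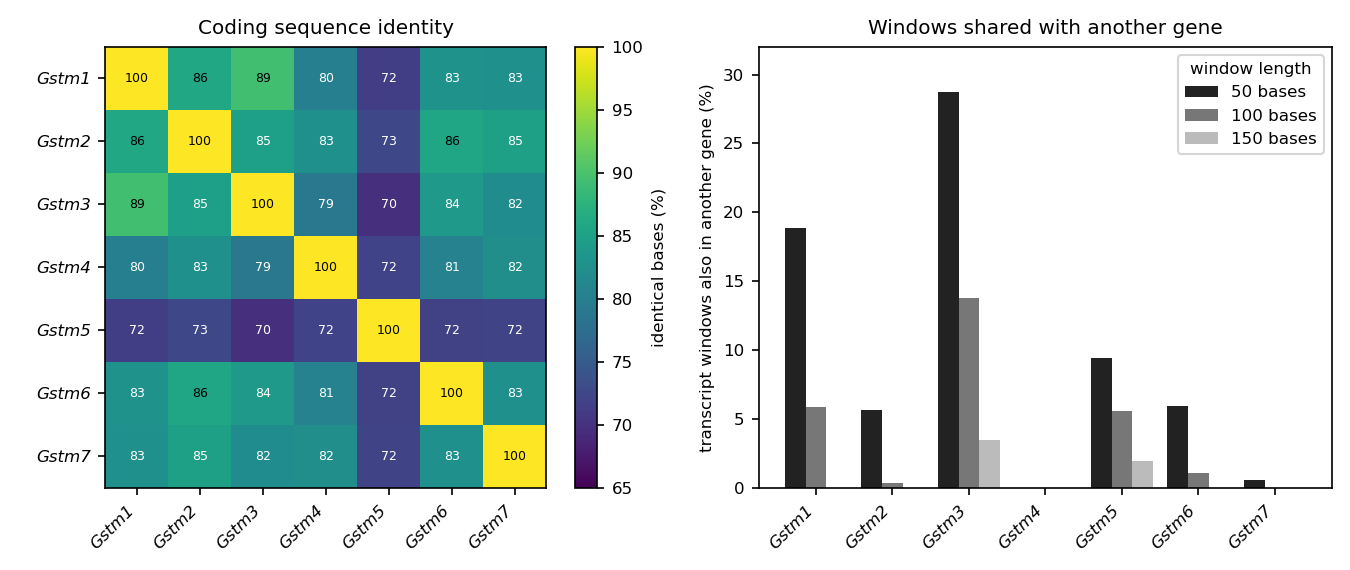
Sequence shared among the Gstm genes. The left panel gives the percentage of identical bases between coding sequences, and the right panel the percentage of transcript windows of 50, 100 or 150 bases that also occur in another gene. Gstm3 shares most (28.8% at 50 bases), Gstm6 shares 5.97%, and Gstm4 shares none.

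The surroundings of the cluster were examined for change along the chromosome. Of 10 other annotated genes that overlap the span, 8 had at most 3 reads in every library and 6 of these were at 0. The exceptions were Gm12494, given above, and 4933431E20Rik, a transcript antisense to the start of Gstm5, with 269 and 239 reads in NC, 199 with siRNA210, 284 in siRNA596 replicate 1 and 92 in the library labelled siRNA596 replicate 2. It shares 129 windows with Gstm5, and without a known strand setting their reads cannot be told apart there. In that last library 4933431E20Rik was lowest whereas Gstm5 was highest. On the side of Gstm5 the nearest protein-coding gene past the filter was Csf1, which encodes a macrophage growth factor, with a log2 fold change of -0.10 (unadjusted P = 0.275, adjusted P = 0.967, edgeR). On the side of Gstm4 it was Ampd2, an AMP deaminase, with -0.063 (unadjusted P = 0.55, adjusted P = 0.977, edgeR). Neither passed the test.

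Promoters were searched on both strands for the core of the ARE, TGACNNNGC, in the RefSeq windows of GRCm38.p6 that run from 250 bases before to 50 after each start. The core was found in Gstm5 and in 1 of 2 starts of Gstm7, and 12.4% of 32851 promoters held it. Both sites are shown with 10 bases on either side, the core in capitals.
Gstm5, chr3:107895802-107895830, plus strand: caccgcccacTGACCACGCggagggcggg
Gstm7, chr3:107931725-107931753, minus strand: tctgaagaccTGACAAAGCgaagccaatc
The site of Gstm5 begins 42 bases before its start. That of Gstm7 begins 129 bases before the start whose window is chr3:107931565-107931864. It lies within the annotated span of Gstm7 (chr3:107926334-107931817), downstream of the annotated start of the gene. The window of the other Gstm7 start held no match. No match was found in the windows of the 3 starts of Gstm6, nor in those of Gstm1, Gstm2, Gstm3 and Gstm4. The XRE core, GCGTG, was found in the windows of Gstm5 and Gstm1 and in 32.4% of all promoters, and in no window of Gstm6. Its reverse complement overlaps the ARE core at the Gstm5 site. These matches are of letters alone. Whether either element acts on these genes in HT22 cells was not tested.

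Outside the mu class, 20 genes of the other glutathione transferases were listed, 19 of which were found and 13 tested. With 4 libraries, 0 of 13 passed the criteria of the study in edgeR or DESeq2. Of all genes, 0.876% passed in either direction in edgeR, and 67 of 15867 in DESeq2. In edgeR 0 of the 13 had an unadjusted P under 0.05, against 3.3% of all genes. At this list size a count of 0 is near that background. The median log2 fold change was 0.19, with 12 of 13 above 0, where all genes had -0.0023 with 49.5% above 0. Gstp1, the pi class enzyme, was the most abundant by mean CPM over all 5 libraries. In NC replicate 1 and with siRNA210, however, Gsta4 had a higher CPM. The reads of Gstp1 were 4243 and 4365 in NC, 4482 and 4525 in KD and 8453 in the library labelled siRNA596 replicate 2 (log2 fold change 0.10). Gsta4, which conjugates 4-hydroxynonenal, had 4360 reads in NC replicate 1 but 2733 in the other NC library, and 4634 and 4278 in KD (0.35). Gsto1, of the omega class, had 3000 and 3089 reads in NC against 2909 and 3225 in KD (0.046). With 5 libraries 0 passed, against 0.353% of all genes. The median was then 0.63 with 11 of 13 above 0, where all genes had 0.011 with 51.0% above 0. This value includes the library labelled siRNA596 replicate 2, in which genes of 1278 to 1989 exonic bases had a median log2 ratio of 0.69.

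Of 29 genes of glutathione synthesis and use, 24 were tested and 0 passed in either direction or had an unadjusted P under 0.05 in edgeR, where 0.876% and 3.3% of all genes did. At this list size a count of 0 is near that background. Their median log2 fold change was 0.067, with 14 of 24 above 0 against 49.5% of all genes. With 5 libraries, and so with the library labelled siRNA596 replicate 2, it was 0.37, where all genes had 0.011. Gclc and Gclm, the subunits of the enzyme that limits glutathione synthesis, had log2 fold changes of 0.068 (standard error 0.0893) and 0.066 (standard error 0.0968). By mean CPM over all 5 libraries, the 3 highest genes of this list were Gpx4, the phospholipid hydroperoxide peroxidase (0.13), Esd, which hydrolyses S-formylglutathione (0.25), and Slc3a2, the heavy chain of the cystine transporter (0.17), and none of them passed. This order rests on the library labelled siRNA596 replicate 2, since in each of the other 4 libraries Abcc1, an exporter of glutathione conjugates (0.22), had a higher CPM than Gpx4.

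All 32 regulators and targets of NRF2 were tested, and 4 of them (Gclc, Gclm, Slc7a11 and Abcc1) are also in the list before. With 4 libraries 0 passed the criteria of the study, against 0.876% of all genes. An unadjusted P under 0.05 in edgeR was reached by 3.3% of all genes. At this list size the counts of the list are near those shares. Of the 32 genes, 2 had an unadjusted P under 0.05. These were Nqo1, a quinone reductase, with a log2 fold change of 0.26 (standard error 0.114, unadjusted P = 0.0473 and adjusted P = 0.967 from edgeR), and Taldo1, of the pentose phosphate pathway, with 0.35 (standard error 0.0818, unadjusted P = 0.00201 and adjusted P = 0.967 from edgeR). The median was 0.12, with 28 of 32 above 0. The most abundant were Fth1 (0.13), Ftl1 (0.37), the ferritin chains, and Sqstm1 (0.21), an autophagy receptor. With 5 libraries the median was also 0.12, with 23 of 32 above 0, where all genes had 0.011 with 51.0% above 0.

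For the other transferases and the NRF2 genes, the median with 4 libraries depended on the NC libraries. Relative to NC replicate 1, NC replicate 2 was lower in 12 of 13 other glutathione transferases, with a median log2 ratio of -0.80. It was lower in 27 of 32 NRF2 genes, with a median of -0.23. Over all genes it was lower in 8123 of 15830, with a median of -0.0083. Hmox1, the haem oxygenase, had 14047 reads in NC replicate 1, but 4765 in NC replicate 2. In the KD libraries of the 4 it had 15279 and 13198. Within the mu class, NC replicate 2 was lower in Gstm7 (log2 ratio -1.19), Gstm1 (-0.36) and Gstm2 (-0.19), almost equal in Gstm5 (0.015) and higher in Gstm6 (0.25). Without NC replicate 2 the median log2 fold change was 0.0073 for the other transferases, with 8 of 13 above 0. It was 0.027 for the NRF2 genes, with 21 of 32 above 0, and 0.0035 for all genes, with 8523 of 16763 above 0. Without NC replicate 1 the medians were 0.80 for the other transferases, 0.24 for the NRF2 genes and 0.0069 for all genes. The values of Gstm1 and Gstm2 without NC replicate 2 were 0.099 and 0.12, and that of Gstm6 was 2.13. Gstm6 was chosen for groups that do not overlap, so leaving out a library could not remove its difference. Hmox1 was named after its values were seen.

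**Figure D5:**
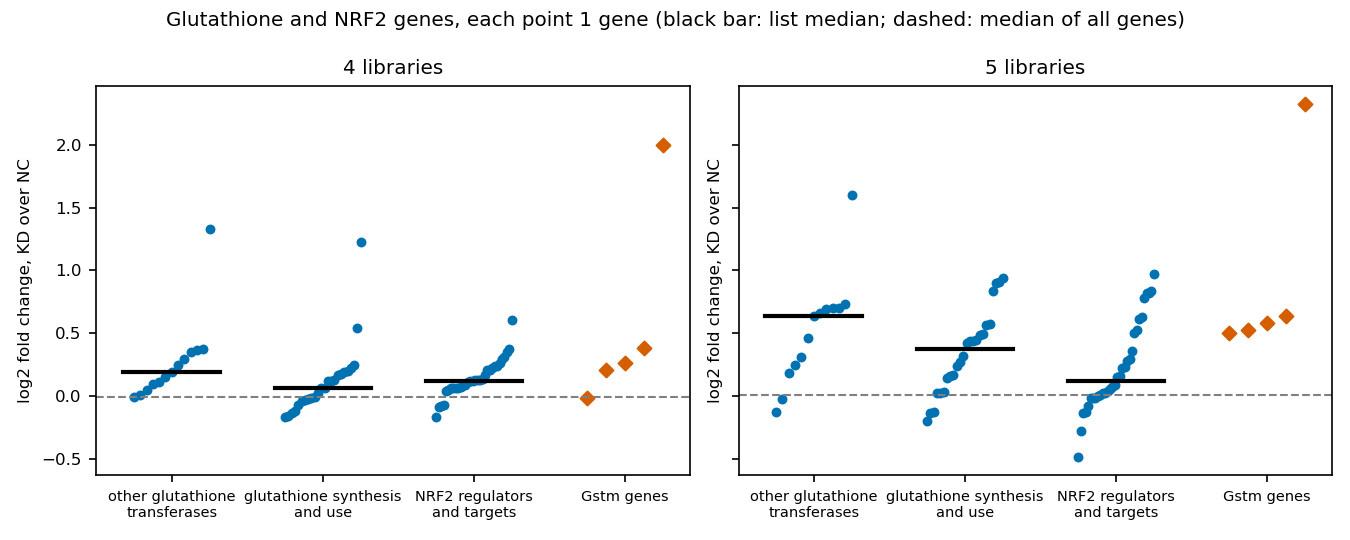
Fold changes of the glutathione and NRF2 genes. Each point is the log2 fold change of 1 tested gene between KD and NC, with 4 libraries on the left and 5 on the right, the black bars are list medians and the dashed line is the median of all genes. With 4 libraries the medians lie at 0.19, 0.067 and 0.12, and the highest diamond is Gstm6 at 2.00.

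Outside the cluster, the genes whose pattern over the 5 libraries was most like that of Gstm6 were found by the Euclidean distance of log2(CPM + 0.5), centred for each gene. Hist1h2bj, a replication-dependent histone H2B gene, was the nearest, at a distance of 0.346, with 12 and 14 reads in NC, 39 with siRNA210, 37 in siRNA596 replicate 1 and 57 in the library labelled siRNA596 replicate 2. Rasl11a, a Ras-like gene, followed at 0.525, Bdh2, a short-chain dehydrogenase, at 0.563, Hist1h4d, a histone H4 gene, at 0.591 and Gm48909 at 0.619. Hist1h2bj and Hist1h4d had as few reads as Gstm6, with 10 to 16 in each NC library. These are descriptions over 5 libraries of the same experiment, and genes picked for likeness are alike by construction.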

How the data were processed

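HT22 RNA-Seq was available as a table of counts, deposited by the authors as whole reads per Ensembl gene without normalization, made with Trimmomatic, HISAT2 2.1.0 (GRCm38), SAMtools 1.7 and featureCounts 2.0.1. The strand setting and the handling of multiply aligned reads are not given in the sources used here. The authors' comparison table (DESeq2 1.26.0) holds fold changes and P-values, which were not used; its mean normalized count, a signal deposited by the authors, served only to trace which libraries entered it.

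Names came from GENCODE for GRCm38 and matched 99.5% of identifiers. Counts were normalized by TMM, filtered by filterByExpr and tested with edgeR 4.0.16 (quasi-likelihood, Benjamini-Hochberg) in R 4.3.3, on 15867 genes with 4 libraries and 16142 with 5. CPM levels used TMM over 5 libraries. The criteria of the study were P under 0.05, unadjusted, with a log2 fold change beyond 1 in size. DESeq2 1.42.0 was an alternative. On simulated data, in which 200 genes were changed, the edgeR steps were tested first. Intervals are at 95%. Figures used matplotlib 3.10.9.

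The members and gene lists (mu class, other transferases, glutathione, NRF2, cell type markers) were chosen with earlier results of these data known. Named genes are the members, Gas5, the 3 genes of each list with the highest mean CPM over 5 libraries and any past the criteria, the 5 nearest to Gstm6 in pattern, genes within the cluster and the nearest expressed protein-coding gene on each side. Others named are Abcc1, Gclc, Gclm and Hmox1, the genes at P under 0.05 and those sharing windows, which were named after values were seen. Of 20 other transferases, Gsta13 had no match. Protein sequences were not used here.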

Additional observations from a re-analysis of the deposited data

How the results depend on the processing

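The log2 fold change of Gstm6 could not change direction when libraries were left out or added, since the gene was chosen for groups that do not overlap. It was 2.33 with all 5 libraries, ran from 1.67 (without the siRNA210 library) to 2.26 with single libraries left out, and moved by less than the spread between replicates with other scalings, filters or DESeq2. The summed cluster had a log2 ratio of 0.60 with 5 libraries and 0.10 to 0.34 with single libraries left out. Gstm5 changed sign (0.024 without siRNA596 replicate 1), as did Gstm7 without NC replicate 2. The number of genes past the criteria, 139 with 4 libraries, was 57 with 5, 67 with DESeq2, 282 without a filter and 73 with at least 10 counts in every library, and ran from 125 to 374 with single libraries left out, the latter without NC replicate 1. In these left-out fits, where a lone library is assumed to vary like the other group, each gene list had 0 to 1 genes past the criteria: Gsta1 (without NC replicate 1, and without siRNA210), Gpx3 (without siRNA596 replicate 1) and Hmox1 (without NC replicate 1). For siRNA596 against NC, with the library that stands apart, 41 genes passed without and 426 with the replicate number as a block, and Gstm6 was 2.36 and 2.27. Deviations of same-numbered libraries had a correlation of 0.128, but with 2 pairs the libraries share only a number. The number of libraries, 2 or 3 per group, limits all calls, and at 10 to 59 reads Gstm6 is near the limit of counting.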
